A study of Homo sapiens with 24 samples.

Results

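Glycosylation enzymes build and attach the sugar chains of secreted and membrane proteins, and 8 of them were followed here in LNCaP cells, a human line from prostate adenocarcinoma that responds to androgen. They are GFPT1, PGM3, UAP1, GALNT7, GCNT1, ST6GALNAC1, ST6GAL1 and CSGALNACT1, taken by gene symbol from RNA-seq tables that list 22227 genes (ligand experiment) and 23028 genes (siRNA experiment). All 8 were present in both experiments and passed the filters on low values. In the ligand experiment, cells kept for 3 days in charcoal-stripped serum, which is depleted of steroid hormones, received vehicle, 10 nM dihydrotestosterone (DHT, the potent natural androgen) or 10 μM enzalutamide (an androgen receptor antagonist, MDV in the labels). Ligands acted for 4 h or 24 h, with 2 libraries per condition, and the sources used here give no treatment time for vehicle. In the siRNA experiment, cells were transfected with a non-targeting pool (siControl) or a pool against GATA2 (siGATA2), a zinc-finger transcription factor that opens chromatin for the androgen receptor. These cells were kept in the same hormone-depleted medium, without phenol red, and treatment began 72 h after transfection and lasted 24 h, either with vehicle or with enzalutamide at 25 μM, and each condition has 3 libraries. Both experiments rest on 1 cell line, and no DHT arm of the siRNA experiment was analysed here.

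GFPT1, PGM3 and UAP1 act in sequence, and the other enzymes use the donor sugars on separate branches. GFPT1 catalyses the first and rate-limiting step of the hexosamine pathway, PGM3 converts N-acetylglucosamine-6-phosphate to the 1-phosphate, and UAP1 forms UDP-GlcNAc, the donor sugar for N-glycans, O-GlcNAc and, after epimerisation, UDP-GalNAc. GALNT7 belongs to the GalNAc transferases and prefers peptides that already carry O-linked GalNAc, GCNT1 makes the core 2 branch of O-glycans, and ST6GALNAC1 caps the first GalNAc with sialic acid, which forms the sialyl-Tn antigen. ST6GAL1 adds α2,6-linked sialic acid to N-glycans, and CSGALNACT1 starts chondroitin sulfate chains. In prostate cells several glycosyltransferases are known as androgen-responsive genes, and changed O-glycans and sialylation are a recognised feature of prostate cancer.

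Promoter sequence was examined as a description only. RefSeq promoter windows (build GRCh38.p14, the 250 bases before each listed start) were found for GALNT7, GCNT1, ST6GAL1, UAP1, PGM3 and GFPT1, with several starts for some of them. Motifs were searched on both strands. The letters AGAACA, as found in androgen response elements, occurred in 12.4% of all 35116 windows. A core site of the GATA factors, AGATAA, occurred in 9.17% of them. The core of the cAMP response element, TGACGT, occurred in 7.1%, and the letters TTGCATCA, as found in amino acid response elements, in 0.772%. Among the windows of members, TGACGT was the single motif found, in GCNT1 and UAP1. The shares above are per window, and GCNT1 and UAP1 have several windows each, so these hits per gene cannot be set against them. The UAP1 window with the motif has 216 of its 250 bases in GENCODE exons, and its motif lies downstream of another listed UAP1 start. The stretches that hold it are shown 5′ to 3′ on the strand of the gene with the motif, or its reverse complement ACGTCA, in capitals. They lie at chr9:76394809-76394838 (+, motif at position -32 from a GCNT1 start), chr9:76459017-76459046 (+, motif at -153 from another GCNT1 start) and chr1:162561536-162561565 (+, motif at -174 from a UAP1 start).
GCNT1, first stretch: ccgctgggttgaACGTCAggcatcgctcgt
GCNT1, second stretch: tactcccagaccACGTCAgtgcccagaggg
UAP1: tgctcccggcgcTGACGTgtctgggcggtc
The GCNT1 window at chr9:76394603-76394852 (+) overlaps no GENCODE exon and is given whole, with the motif in capitals, since GCNT1 is the member whose response to enzalutamide differed most between siControl and siGATA2 cells.
GCNT1 window: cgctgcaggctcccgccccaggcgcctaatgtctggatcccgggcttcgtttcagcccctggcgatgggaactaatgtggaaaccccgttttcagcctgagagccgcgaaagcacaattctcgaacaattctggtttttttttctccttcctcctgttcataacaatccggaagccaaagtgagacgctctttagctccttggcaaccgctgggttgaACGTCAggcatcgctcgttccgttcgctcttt
A match of letters is a description of the window and not a binding site.

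The ligand libraries held between 38894876 and 59985287 estimated read counts, and the siRNA libraries about 57000000 to 76000000 reads, as judged from the steps between low values. Vehicle was deposited as 4 columns, of which 3 are named as replicate 1. These 3 differed from each other by a mean chi-square of 1.53 to 1.56 per gene against 3.56 to 3.74 from the column of replicate 2. This value grows with depth, and the 3 columns held 18778840 to 21717301 counts against 38894876 in replicate 2. Replicates 1 and 2 of DHT 4 h, which were deeper, differed by 2.03. The chi-square therefore cannot show whether the 3 columns are 1 replicate. They were summed by their shared replicate number, and vehicle counted as n = 2. The luminal prostate markers of the cell line, 9 of 9, were detected in every library. Of 11 markers of leukocytes, fibroblasts, endothelium and basal epithelium, 8 stayed below 1 RPKM in every siRNA library, among them PTPRC, CD3E and COL1A2 with at most 0.00736 RPKM, whereas CD68 ranged from 3.54 to 12.2 RPKM, COL1A1 from 9.62 to 16.3 RPKM and VWF from 0.362 to 1.25 RPKM. In bulk libraries, fewer cells with a transcript and less transcript per cell cannot be told apart.

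The first question was how the 8 transcripts respond to the androgen and to the antagonist. DHT raised most of them, and the rise grew with time. After 4 h of DHT, 5 of 8 members were called (Benjamini-Hochberg adjusted p below 0.05, edgeR quasi-likelihood test over all 15555 genes tested), all of them higher, against 6.77% of genes called in either direction and 4.66% called higher. After 24 h, 8 of 8 were called, 7 higher and 1 lower, against 50.0% of genes called, 26.9% higher and 23.2% lower. Changes beyond 2-fold were called for 3 of 8 members at 24 h, ST6GALNAC1, CSGALNACT1 and UAP1, all higher, against 5.52% of genes, with 2.03% higher. The median log2 fold change of the 8 members was 0.30 at 4 h and 0.87 at 24 h, and the median of all genes was -0.01 and 0.00. The members were chosen with earlier results of these data known. Their counts beside the shares of all genes, here and below, are therefore a description and not a test.

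Fewer members were called with enzalutamide. At 4 h, 2 of 8 members were called, GCNT1 and UAP1, both lower, against 13.6% of genes in either direction and 6.68% called lower. The 2 libraries of enzalutamide 4 h were the least alike of the ligand pairs, with a mean chi-square of 9.82 per gene. It was 2.03 for DHT 4 h, 2.29 for enzalutamide 24 h and 4.57 for DHT 24 h. At 24 h, 5 of 8 were called, 3 lower and 2 higher, against 33.4% of genes (17.0% lower, 16.4% higher). ST6GALNAC1 was the 1 member beyond 2-fold at 24 h, where 2.56% of genes passed that limit, with 1.82% lower. All 4 of these comparisons share the same vehicle libraries.

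**Figure D1:**
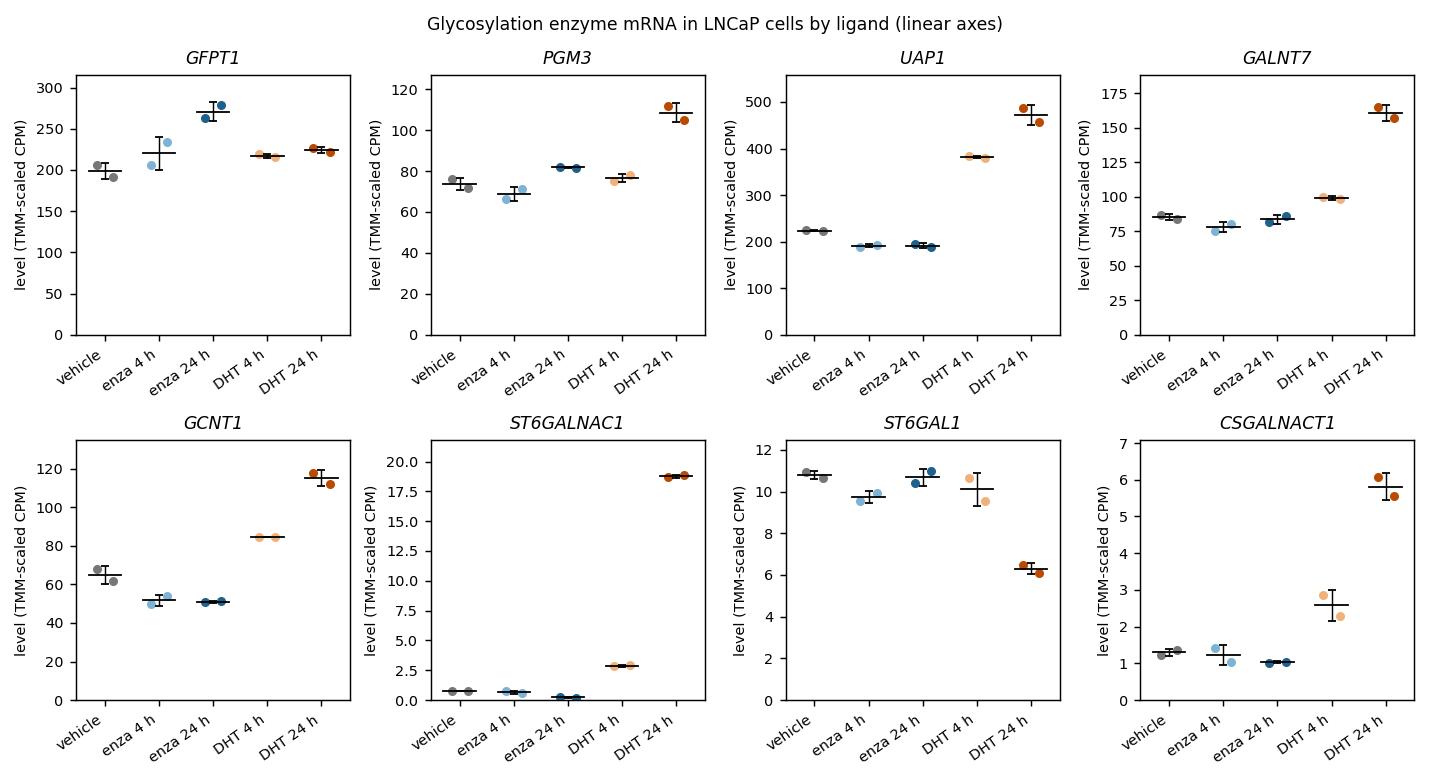
Level of each enzyme transcript (counts scaled to library size with TMM factors, CPM, linear axis from 0) in every ligand library, with the mean (horizontal bar) and SD (error bar) of the 2 libraries per condition. In the ST6GALNAC1 panel the DHT 24 h libraries stand at 18.7 and 18.9 CPM and vehicle at 0.736 and 0.776 CPM, and in the ST6GAL1 panel the DHT 24 h libraries are the lowest.

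UAP1, which makes UDP-GlcNAc, was among the most abundant members and responded within 4 h. Its level, in counts scaled to library size (CPM), was 225 and 223 CPM in the vehicle libraries, 384 and 380 CPM after 4 h of DHT, and 487 and 457 CPM after 24 h. The 2 times of DHT stood above vehicle and apart from each other, with a log2 fold change of 0.77 (SE 0.0366, adjusted p = 1.24e-08) at 4 h and 1.08 (SE 0.0367, adjusted p = 1.06e-10) at 24 h. Under enzalutamide UAP1 had 189 and 193 CPM at 4 h and 195 and 188 CPM at 24 h, all below both vehicle libraries. The fall was small and alike at both times, -0.23 (adjusted p = 0.00162) and -0.23 (adjusted p = 0.000428) on the log2 scale.

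PGM3, the step before UAP1, showed a late response. Vehicle libraries held 75.9 and 71.6 CPM of PGM3 and the DHT 4 h libraries 75.1 and 77.9 CPM, so these groups overlapped. After 24 h of DHT it reached 112 and 105 CPM, a log2 fold change of 0.56 (SE 0.0481, adjusted p = 6.81e-07). Enzalutamide gave 66.5 and 71.2 CPM of PGM3 at 4 h and 81.99 and 81.45 CPM at 24 h. The difference of the 24 h libraries from vehicle was 0.15 on the log2 scale (adjusted p = 0.0341), and it was not called with DESeq2 (adjusted p = 0.0802), with RLE factors (0.0639) or with the set number in the column names as a term (0.149). It was also lost without either DHT 4 h library, either enzalutamide 24 h library or vehicle replicate 2 (adjusted p = 0.0694 to 0.261). Exons of PGM3 overlap those of DOP1A on the opposite strand over 858 bases, and whether the counting used strand is not stated, so reads of these 2 genes may not be fully separated.

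GFPT1, the entry enzyme of the same pathway, went a different way. Its vehicle level of 206 and 192 CPM was followed by 219 and 215 CPM after 4 h and 227 and 222 CPM after 24 h of DHT. The DHT 24 h libraries lay only just above vehicle, with a log2 fold change of 0.17 (SE 0.0551, adjusted p = 0.0193). That call was lost without either DHT 24 h library (adjusted p = 0.104 and 0.0502), without vehicle replicate 2 (0.152) and with the set number as a term (0.118). Enzalutamide gave a larger rise in GFPT1, to 206 and 234 CPM at 4 h and 263 and 279 CPM at 24 h. The 24 h rise was 0.45 on the log2 scale (SE 0.0549, adjusted p = 4.01e-05), and at 4 h the value of 0.15 missed the threshold (adjusted p = 0.099). It passed without the filter on low counts (adjusted p = 0.00732) and without enzalutamide 4 h replicate 1 (0.24, adjusted p = 0.00294), and ranged from 0.05 to 0.24 with a library left out. Of the hexosamine enzymes among the members, UAP1 was thus lower and GFPT1 higher after 24 h of the antagonist.

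GALNT7, a GalNAc transferase of mucin-type O-glycans, had 86.6 and 83.5 CPM in vehicle. DHT brought it to 99.9 and 98.1 CPM at 4 h and to 165 and 157 CPM at 24 h. Both times lay above vehicle, by 0.22 (adjusted p = 0.00964) and 0.92 (SE 0.0456, adjusted p = 4.1e-09) on the log2 scale. The 4 h call was lost without DHT 4 h replicate 1 (adjusted p = 0.106) or replicate 2 (0.0584) and without vehicle replicate 2 (0.0915). With enzalutamide GALNT7 stood at 75.4 and 80.5 CPM at 4 h and 81.3 and 85.8 CPM at 24 h, and neither time was called (adjusted p = 0.0951 and 0.704). The 4 h value of -0.13 was called with the 4 vehicle columns as separate samples (-0.14, adjusted p = 0.0259) and without enzalutamide 4 h replicate 2 (-0.18, adjusted p = 0.0488). Its exons overlap 2 antisense RNAs that the tables do not list.

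GCNT1, the core 2 branching enzyme, moved in opposite directions with the 2 ligands. The vehicle libraries held 68.0 and 61.7 CPM of GCNT1, and those with DHT 84.6 and 84.6 CPM at 4 h and 118 and 112 CPM at 24 h. With enzalutamide it was 49.8 and 53.9 CPM at 4 h and 50.7 and 51.4 CPM at 24 h. None of these groups overlapped vehicle. Log2 fold changes of GCNT1 against vehicle were 0.38 (adjusted p = 0.000383) and 0.83 (SE 0.0523, adjusted p = 3.78e-08) for DHT, and -0.33 (adjusted p = 0.00195) and -0.35 (adjusted p = 0.00028) for enzalutamide, at 4 h and 24 h in that order.

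ST6GALNAC1, the sialyl-Tn synthase, had the widest range of all members. It was scarce in the vehicle cells of the ligand experiment, with 47 counts (0.776 CPM) in the summed replicate 1 and 29 counts (0.736 CPM) in replicate 2. DHT gave 150 and 157 counts (2.83 and 2.92 CPM) at 4 h and 1021 and 740 counts (18.7 and 18.9 CPM) at 24 h. The groups were far apart, with a 3.77-fold rise at 4 h (log2 1.92, SE 0.155, adjusted p = 2.5e-06) and a 24.6-fold rise at 24 h (log2 4.62, SE 0.131, adjusted p = 2.05e-11). Enzalutamide libraries of 4 h held 32 and 28 counts of ST6GALNAC1 (0.753 and 0.567 CPM) and overlapped vehicle. Those of 24 h held 13 and 9 counts (0.256 and 0.182 CPM), below every other library, with a log2 fold change of -1.78 (SE 0.259, adjusted p = 0.000169). These low counts set the width of the 95% interval of that value, -2.34 to -1.22.

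ST6GAL1, the N-glycan sialyltransferase, was the 1 member lower after DHT. Its vehicle libraries held 10.9 and 10.7 CPM, the DHT 4 h libraries 10.7 and 9.55 CPM and the DHT 24 h libraries 6.49 and 6.12 CPM. The loss at 24 h was -0.77 on the log2 scale (SE 0.0826, adjusted p = 4.84e-06), and the 4 h value of -0.10 was not called (adjusted p = 0.545). Levels of ST6GAL1 with enzalutamide, 9.52 and 9.93 CPM at 4 h and 10.39 and 10.97 CPM at 24 h, were not called against vehicle (adjusted p = 0.237 and 0.888). The 2 sialyltransferases among the members therefore had opposite signs after 24 h of DHT.

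CSGALNACT1, which starts chondroitin sulfate chains, was also scarce, with 75 and 54 counts (1.24 and 1.37 CPM) in vehicle. It rose with DHT to 2.87 and 2.29 CPM at 4 h and to 6.07 and 5.56 CPM at 24 h. Neither DHT group overlapped vehicle. The log2 fold change was 0.99 (SE 0.178, adjusted p = 0.00321) at 4 h, where the call was lost without vehicle replicate 1 (adjusted p = 0.0522), and 2.17 (SE 0.167, adjusted p = 2.31e-07) at 24 h, a 4.49-fold rise. Enzalutamide gave 1.41 and 1.03 CPM at 4 h and 1.006 and 1.049 CPM at 24 h. These values, -0.10 and -0.34 on the log2 scale, were not called (adjusted p = 0.815 and 0.238), and both turned positive with the set number as a term (0.11 and 0.02).

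**Figure D2:**
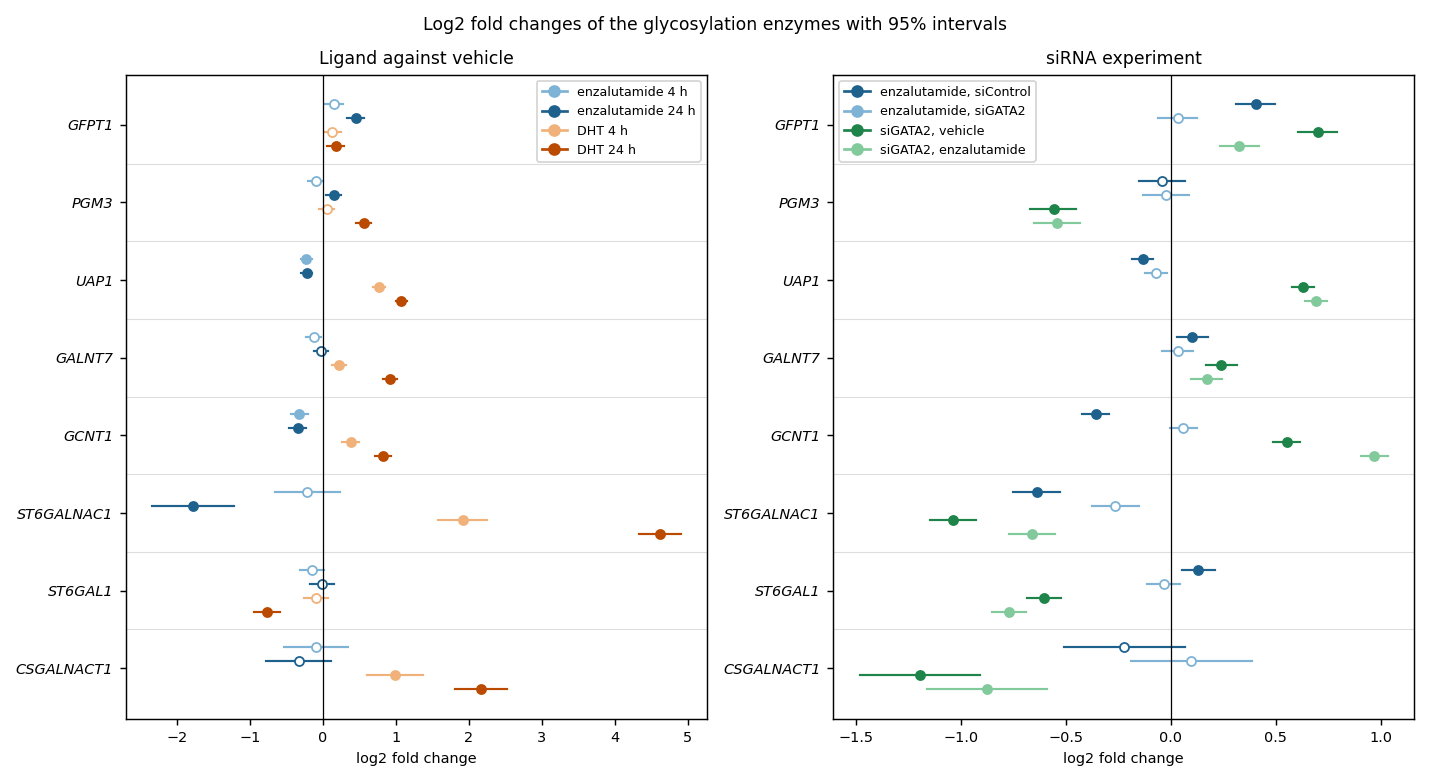
Log2 fold change (x axis) with its 95% interval for each enzyme, against vehicle in the ligand experiment (left) and in the siRNA experiment (right). Filled points passed the adjusted threshold and open points did not. The 4.62 of ST6GALNAC1 after 24 h of DHT is the farthest point at the left, and at the right all open points but 2 belong to enzalutamide in siGATA2 cells.

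The set numbers deserve mention, because the DHT 4 h libraries carry set 1, enzalutamide 4 h set 2 and enzalutamide 24 h set 3 in their column names, and what a set is the sources used here do not say. Vehicle replicate 1 has a column in each set, so a term for the set could be fitted, with those 3 columns entered as separate samples although they count as 1 replicate elsewhere. Adjusted p-values from this fit therefore rest on more samples than there are replicates. With it the 24 h log2 fold changes with DHT were 4.63 for ST6GALNAC1, 2.44 for CSGALNACT1, 1.06 for UAP1, 0.86 for GALNT7, 0.75 for GCNT1, 0.49 for PGM3 and -0.79 for ST6GAL1. The fall of ST6GALNAC1 after 24 h of enzalutamide was then -1.76.

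Agonist and antagonist were also compared directly. At 4 h, 5 of 8 members were higher with DHT than with enzalutamide, against 15.8% of genes called in either direction and 8.49% called higher. They were ST6GALNAC1 (log2 difference 2.13), CSGALNACT1 (1.09), UAP1 (1.00), GCNT1 (0.71) and GALNT7 (0.34). With the set number as a term CSGALNACT1 was no longer called (0.72, adjusted p = 0.241). PGM3 lay near the threshold (0.15, adjusted p = 0.0525) and passed it with DESeq2 (0.0416). At 24 h, 8 of 8 differed, 6 higher and 2 lower with DHT, where 64.9% of genes were called, 31.3% higher and 33.6% lower. ST6GALNAC1 was 84.6-fold higher with DHT than with enzalutamide at 24 h (log2 6.40, SE 0.16), CSGALNACT1 5.66-fold, UAP1 2.47-fold, GCNT1 2.26-fold, GALNT7 1.93-fold and PGM3 1.33-fold. ST6GAL1 (-0.76) and GFPT1 (-0.27, adjusted p = 0.000663) were lower with DHT.

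Time within a ligand was tested as well. With DHT, 7 of 8 members differed between 24 h and 4 h, 6 higher and 1 lower at 24 h, against 49.8% of genes (26.3% higher, 23.5% lower), and GFPT1 was the exception (0.05, 95% interval -0.07 to 0.17). Levels of UAP1 had covered most of their rise by 4 h, and its further gain was 0.31, compared with 2.71 for ST6GALNAC1 and 1.18 for CSGALNACT1. With enzalutamide, 3 of 8 members differed between the times, against 24.6% of genes (11.7% higher, 12.9% lower). ST6GALNAC1 fell further (-1.57, adjusted p = 0.00102), whereas GFPT1 (0.30, adjusted p = 0.00157) and PGM3 (0.25, adjusted p = 0.00255) were higher at 24 h. For GCNT1 (-0.02, 95% interval -0.14 to 0.10) and UAP1 (0.00, 95% interval -0.08 to 0.08) no difference between 4 h and 24 h of enzalutamide was detected.

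The second question was how the same transcripts depend on GATA2 and whether the response to enzalutamide does. GATA2 itself stood at 83.8, 77.0 and 86.1 RPKM (reads per kilobase of transcript, scaled to the depth of the library) in siControl vehicle and at 54.3, 53.4 and 46.6 RPKM in siGATA2 vehicle libraries, 62.5% of the control mean. Under enzalutamide it was 129, 132 and 128 RPKM in siControl and 60.1, 64.7 and 61.5 RPKM in siGATA2 cells, 48.1% of the control. The knockdown was thus partial at the mRNA level, in every library. The summed level of the 11 markers of other cell types was 14.6 to 16.0 RPKM in siControl vehicle and 24.7 to 29.7 RPKM in siGATA2 vehicle. CD68 and COL1A1 made up most of this sum, while PTPRC, CD3E and PECAM1 stayed at or below 0.0295 RPKM.

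In siControl vehicle cells the order of levels per length was UAP1 (83.5 RPKM, mean of n = 3), GALNT7 (29.2), GFPT1 (15.7), GCNT1 (11.7), ST6GALNAC1 (8.90), PGM3 (8.47), ST6GAL1 (7.21) and CSGALNACT1 (0.425). UAP1 lay above 96.9% of genes tested, ST6GALNAC1 above 68.4% and CSGALNACT1 above 34.5%. ST6GALNAC1 was thus not scarce here, whereas in the vehicle libraries of the ligand experiment its mean was 0.756 CPM and that of PGM3 73.8 CPM. In vehicle, ST6GALNAC1 therefore lay close to PGM3 in the siRNA experiment and far below it in the ligand experiment. CPM is not scaled to transcript length, the quantification also differed, and the cause was not tested. The libraries of ST6GALNAC1 and PGM3 overlapped, and no other neighbours in this order did. UAP1, GALNT7, GFPT1 and GCNT1 led in this order in all 4 conditions, and CSGALNACT1 was last in each.

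**Figure D3:**
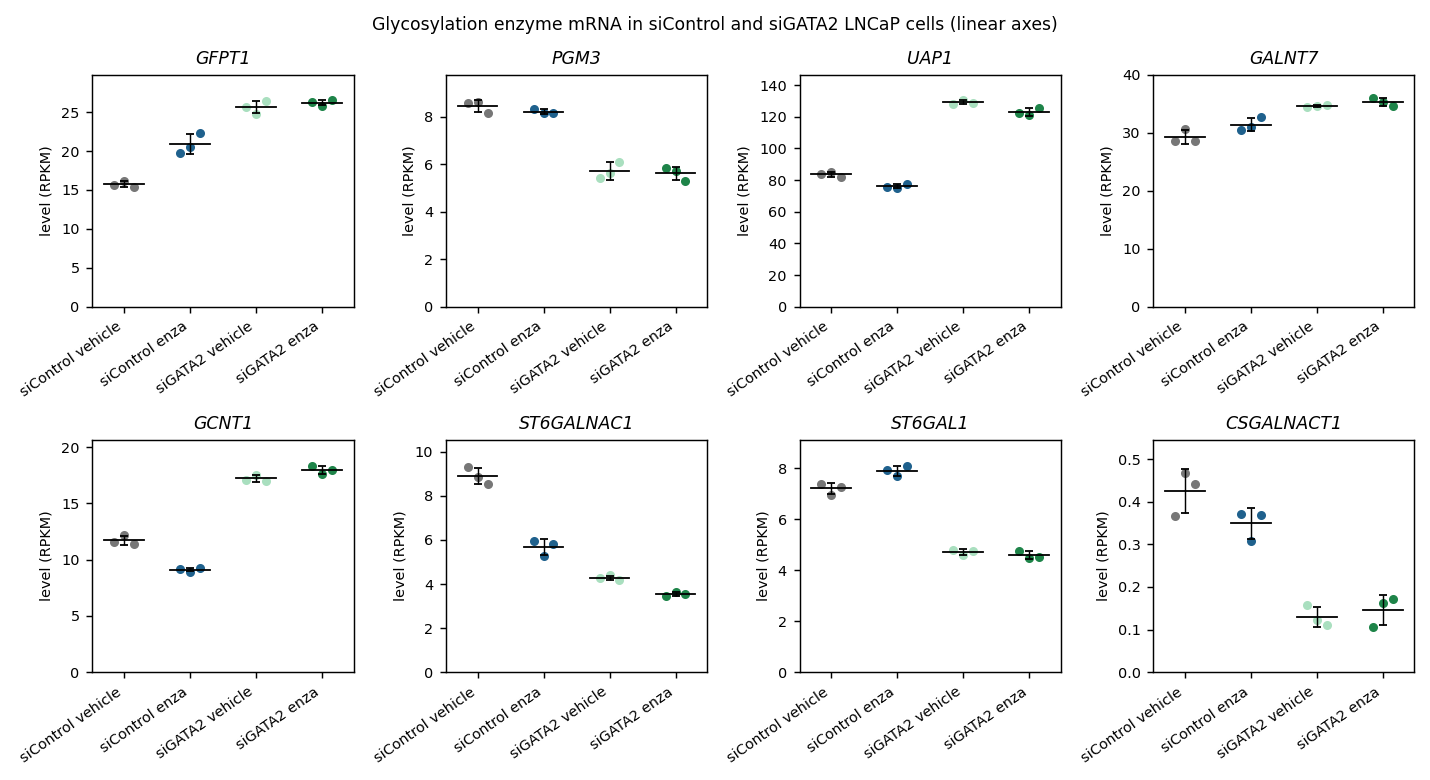
Level of each enzyme transcript (RPKM, linear axis from 0) in the 3 libraries of each siRNA condition, with mean (horizontal bar) and SD (error bar). In siGATA2 cells GFPT1, UAP1, GALNT7 and GCNT1 stand above both siControl groups, and PGM3, ST6GALNAC1, ST6GAL1 and CSGALNACT1 below them.

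The siGATA2 pool split the members evenly. In vehicle, 8 of 8 differed from siControl, 4 higher and 4 lower, by limma on log2(RPKM + 0.1) over 20369 genes, of which 55.6% were called (24.2% higher, 31.4% lower). Under enzalutamide it was again 8 of 8, 4 higher and 4 lower, against 54.5% of genes (26.3% higher, 28.1% lower). Beyond 2-fold in vehicle were 2 of 8, ST6GALNAC1 and CSGALNACT1, both lower, against 5.55% of genes, with 3.72% lower. On this scale fold changes of low genes such as CSGALNACT1 are understated. The summed level of the 11 markers of other cell types, mostly CD68 and COL1A1, moved with the knockdown. Its part in these differences was not tested.

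The higher members included both ends of UDP-GlcNAc synthesis. UAP1 rose from 83.8, 84.9 and 81.9 RPKM in siControl to 128, 131 and 129 RPKM in siGATA2 vehicle cells, with no overlap (log2 0.63, SE 0.0235, adjusted p = 6.08e-09). GFPT1 rose from 15.7, 16.2 and 15.4 to 25.7, 24.8 and 26.5 RPKM, also apart (log2 0.70, SE 0.042, adjusted p = 1.73e-07). GCNT1 had 11.5, 12.2 and 11.4 RPKM in siControl and 17.1, 17.6 and 17.0 RPKM in siGATA2 vehicle cells (log2 0.55, SE 0.0289, adjusted p = 6.34e-08). The smallest of these rises was that of GALNT7, from 28.6, 30.6 and 28.6 to 34.4, 34.6 and 34.7 RPKM (log2 0.24, SE 0.0333, adjusted p = 0.000105).

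PGM3, which links GFPT1 to UAP1, went the other way, from 8.58, 8.64 and 8.17 RPKM in siControl to 5.41, 5.63 and 6.12 RPKM in siGATA2 vehicle cells (log2 -0.56, SE 0.0493, adjusted p = 3.28e-06). Both sialyltransferases fell. ST6GALNAC1 went from 9.29, 8.85 and 8.55 RPKM to 4.25, 4.39 and 4.19 RPKM (log2 -1.04, SE 0.0498, adjusted p = 3.38e-08), and ST6GAL1 from 7.39, 6.97 and 7.27 to 4.79, 4.58 and 4.76 RPKM (log2 -0.60, SE 0.0358, adjusted p = 1.58e-07). CSGALNACT1 decreased from 0.367, 0.467 and 0.442 RPKM to 0.157, 0.121 and 0.110 RPKM, 30.4% of the control mean (log2 -1.20, SE 0.129, adjusted p = 1.6e-05). In each of these 4 genes the siControl and siGATA2 vehicle libraries did not overlap. The share of all genes without overlap was not determined.

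Under enzalutamide the siGATA2 cells differed from siControl in the same directions, and the 2 comparisons have no library in common. The log2 differences were 0.97 for GCNT1, 0.69 for UAP1, 0.33 for GFPT1 and 0.17 for GALNT7, and -0.88 for CSGALNACT1, -0.77 for ST6GAL1, -0.66 for ST6GALNAC1 and -0.54 for PGM3. The least of these by adjusted p was GALNT7 (0.00125). For this comparison the replicate number, entered as a block, left 8 of 8 called.

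Enzalutamide at 25 μM for 24 h changed 6 of 8 members in siControl cells, 3 lower and 3 higher, against 42.1% of genes (24.4% lower, 17.7% higher). The summed level of the 11 markers of other cell types, mostly CD68 and COL1A1, was also higher with enzalutamide in these cells. It was 17.8 to 18.4 RPKM against 14.6 to 16.0 RPKM, and its part in the differences was not tested. ST6GALNAC1 fell from the siControl vehicle levels given above to 5.96, 5.25 and 5.83 RPKM (log2 -0.64, SE 0.0498, adjusted p = 4.13e-06), and GCNT1 to 9.18, 8.94 and 9.22 RPKM (-0.36, adjusted p = 5.27e-06). UAP1 fell to 75.8, 74.9 and 77.6 RPKM (-0.135, adjusted p = 0.000951). GFPT1 rose to 19.8, 20.6 and 22.4 RPKM (0.41, SE 0.042, adjusted p = 2.92e-05). None of these 4 genes overlapped between the groups, and the share of all genes without overlap was not determined. Smaller rises were called for ST6GAL1, with 7.93, 7.70 and 8.09 RPKM (0.13, adjusted p = 0.0131), and GALNT7, with 30.5, 31 and 32.7 RPKM (0.10, adjusted p = 0.0303). The GALNT7 groups overlapped, and its call was lost without the variance trend (adjusted p = 0.0533), with the replicate number as a block (0.0512), with only the groups compared (0.0915) and without siControl vehicle replicate 1 (0.105) or 3 (0.1) or siControl enzalutamide replicate 3 (0.11). PGM3, at 8.33, 8.18 and 8.15 RPKM, and CSGALNACT1, at 0.372, 0.307 and 0.370 RPKM, were not called (adjusted p = 0.551 and 0.202). Dose, sequencer and quantification differ from the ligand experiment, so its values at 10 μM and 24 h, -1.78 for ST6GALNAC1, -0.35 for GCNT1, -0.23 for UAP1 and 0.45 for GFPT1, are given side by side with these and not compared.

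In siGATA2 cells the same treatment changed 0 of 8 members by limma, against 0.412% of genes (84 of 20369), and 2 of 8 had an unadjusted p below 0.05, where 10.8% of all genes did. Those 2 were ST6GALNAC1, at 3.45, 3.63 and 3.57 RPKM against 4.25, 4.39 and 4.19 RPKM in siGATA2 vehicle cells, and UAP1, at 123, 121 and 125 RPKM. ST6GALNAC1 did not overlap between the groups (log2 -0.26, 95% interval -0.37 to -0.15, adjusted p = 0.0637), and it was called when genes under a mean of 0.5 RPKM were left out (adjusted p = 0.0311) and without siControl enzalutamide replicate 2 (0.0305). For the others the log2 differences lay between -0.04 and 0.10. GCNT1 had 18.3, 17.6 and 17.9 RPKM and GFPT1 26.3, 25.8 and 26.5 RPKM, near their siGATA2 vehicle levels.

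Whether the response to enzalutamide differed between siGATA2 and siControl cells was tested as an interaction, which was called for 4 of 8 members, 2 in each direction, and for 25.8% of genes (15% positive, 10.8% negative). GCNT1 fell with enzalutamide in siControl cells and not in siGATA2 cells, with a difference of responses of 0.42 (SE 0.0409, adjusted p = 6.65e-05). For ST6GALNAC1 the fall was smaller in siGATA2 cells, by 0.38 (SE 0.0705, adjusted p = 0.0033). The rise of GFPT1 was smaller there, by -0.37 (SE 0.0594, adjusted p = 0.00128), and so was that of ST6GAL1, by -0.17 (adjusted p = 0.0354). The ST6GAL1 interaction lost its call without any of 8 libraries in turn, with values from -0.19 to -0.14. No difference was detected for UAP1 (0.06, 95% interval -0.01 to 0.14), GALNT7 (-0.07, -0.18 to 0.03), PGM3 (0.02, -0.14 to 0.17) and CSGALNACT1 (0.32, -0.09 to 0.73), and the last interval is wide.

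The members were set against the pathways they belong to, with lists of 10 to 27 genes. These lists were also chosen with earlier results of these data known. Counts and medians of a list include its members unless stated. Their counts stand against the shares of all genes called, which were 26.9% higher and 23.2% lower after 24 h of DHT, 16.4% higher and 17.0% lower after 24 h of enzalutamide, and 24.2% higher and 31.4% lower in siGATA2 vehicle cells. Among 20 genes of hexosamine and sialic acid donors, 9 rose and 5 fell after 24 h of DHT (26.9% and 23.2% of all genes), with a median log2 change of 0.14. Without GFPT1, PGM3 and UAP1, 6 of 17 rose and 5 fell, with a median of 0.095. GFPT2, a second form of the entry enzyme, was lower (-0.74, adjusted p = 0.00279), and RENBP, a GlcNAc epimerase, went from a mean of 0.31 CPM in vehicle to 0.00915 CPM, at 0 in 1 of the libraries. After 24 h of enzalutamide 7 rose and 1, UAP1, fell. In siGATA2 vehicle cells 7 rose and 8 fell. GNPDA1, which returns glucosamine-6-phosphate to glycolysis, fell there from 26.1 ± 0.363 to 7.85 ± 0.352 RPKM (SD, n = 3).

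Of 12 GalNAc transferases tested in the ligand experiment, 3 rose and 5 fell after 24 h of DHT (26.9% and 23.2% of all genes), with a median of -0.16. GALNT7 was higher and GALNT16 lower (-1.19, adjusted p = 0.0313). The level of GALNT16 was very low, with a mean of 0.276 CPM in vehicle and 0.115 CPM after DHT. GALNT12, counted among the 3, had 0.306 and 0.457 CPM after DHT and 0.116 and 0.152 CPM in vehicle. No test is given because it passed the filter on low counts only through its DHT 24 h libraries. The 3 rises and the median include it, so these rises cannot be set against the 26.9% of all genes. In siGATA2 vehicle cells 5 of 19 rose and 7 fell, led by GALNT14 (-1.49, adjusted p = 6.57e-07). Of 6 genes for O-glycan cores and their extension, 3 rose and 0 fell with DHT at 24 h (edgeR), and GCNT1 was the 1 gene beyond 1.5-fold. Without GCNT1, 2 of 5 rose, with a median of 0.02. GCNT2, which branches poly-N-acetyllactosamine, rose in siGATA2 vehicle cells (0.78, adjusted p = 5.45e-07).

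The sialyltransferases mostly fell with DHT. Of 12 tested, 9 fell and 2 rose after 24 h, with a median of -0.60 against 0.00 for all genes, and ST6GALNAC1 was 1 of the 2 that rose. Without ST6GALNAC1 and ST6GAL1, 8 of 10 fell and 1 rose, with a median of -0.60. ST6GALNAC5, which acts on gangliosides, went from 0.698 to 0.14 CPM (-2.32, adjusted p = 9.44e-05), and ST8SIA4, a polysialic acid synthase, from 2.15 to 0.967 CPM (-1.14, adjusted p = 6.94e-05). ST8SIA4 also fell in siGATA2 vehicle cells, from 1.80 ± 0.0323 to 0.286 ± 0.0213 RPKM (SD, n = 3), where 6 of 18 sialyltransferases rose and 6 fell.

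N-glycan processing showed 2 rises and 6 falls among 12 genes after 24 h of DHT (26.9% and 23.2% of all genes), and 6 rises with no fall (0 of 12, edgeR) after 24 h of enzalutamide (16.4% and 17.0% of all genes). MAN1A1, a Golgi α-mannosidase, had the largest change, from a mean of 41.2 CPM in vehicle to 6.91 CPM after DHT (-2.58, adjusted p = 3.55e-11). In siGATA2 vehicle cells it stood at 26.5 ± 0.0988 RPKM against 7.33 ± 0.0761 RPKM in siControl (SD, n = 3, log2 1.84, adjusted p = 1.08e-11). For chondroitin and heparan sulfate assembly, 7 of 24 genes rose and 8 fell with DHT at 24 h, near the 26.9% and 23.2% of all genes. CSGALNACT1 was the largest of these, and the sulfotransferase CHST11 was lower (-1.26, adjusted p = 0.000129). Of 27 such genes, 16 fell and 6 rose in siGATA2 vehicle cells, with a median of -0.18, and DSEL, a dermatan sulfate epimerase, went from 8.55 ± 0.284 to 2.28 ± 0.22 RPKM (SD, n = 3).

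**Figure D4:**
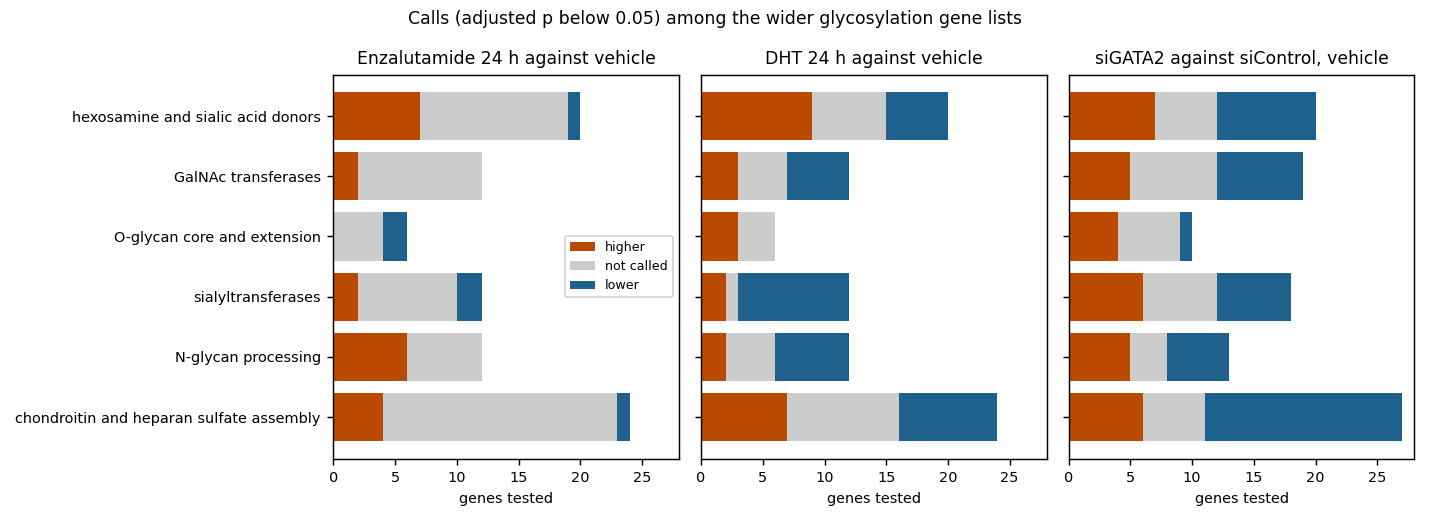
Number of genes tested, members included, in each of 6 glycosylation lists (x axis) that were called higher, not called or called lower in 3 comparisons. After 24 h of DHT 9 of 12 sialyltransferases are lower, and in siGATA2 cells 16 of 27 chondroitin and heparan sulfate genes are lower.

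For the 3 members that changed at least 2-fold against vehicle or siControl, the genes with the most similar values were looked for among 11377 genes, by the root-mean-square difference over 7 log2 changes (4 ligand conditions against vehicle and 3 siRNA conditions against siControl vehicle). Only genes above a minimum level in both experiments were searched, so scarce genes could not be neighbours. The difference was not scaled to the size of a member's own changes. UAP1 had close neighbours. ACSL3 differed from it by 0.165, ALDH1A3 by 0.219 and PEX10 by 0.226. CSGALNACT1 was nearest to GPR158 (0.24), CENPN (0.312) and FAM174B (0.363). ST6GALNAC1, with the largest changes, had no neighbour as near among the genes searched, with CHRNA2 at 0.738, TMPRSS2 at 1.07 and SLC45A3 at 1.11. After 24 h of DHT the log2 change of CHRNA2, a nicotinic receptor subunit, was 5.07, and that of ST6GALNAC1 4.62.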

How the data were processed

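The authors aligned poly(A) RNA-seq reads of LNCaP cells with TopHat2 (hg19, per the submitters' processing notes), obtained gene values with Partek Genomics Suite at its defaults and, for the ligand experiment, deposited estimated counts. These were rounded, and a gene missing from a table was set to 0. For the siRNA experiment the authors deposited RPKM values. The 4 vehicle columns are labelled as 4 biological replicates, but 3 of them carry replicate number 1 in the file headers and were summed. The number of value columns not used was 0.

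Ligand counts went through edgeR 4.0.16 (R 4.3.3): TMM factors, default filter, quasi-likelihood test, 1 model of all 5 conditions with 10 libraries. For RPKM, limma 3.58.1 with an intensity trend was run on log2(RPKM + 0.1), keeping genes that exceeded 0 in 3 or more libraries, in 1 model of all 4 conditions with 12 libraries. Adjusted p-values (Benjamini-Hochberg) run over all genes tested in a comparison, and a call is an adjusted p below 0.05. Whether biological replicates were separate cultures is not stated, so p-values measure the spread between these samples. Intervals are 95% intervals of the fit. Where libraries of groups are said not to overlap, this describes their levels. The share of all genes without overlap was not determined. The ligand tables and the siRNA tables were normalized separately, and tests were run only within each. Levels of ST6GALNAC1 and PGM3 were set side by side across them without a test.

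On simulated data with known changes, 84.0% of 2-fold and 70.0% of 1.5-fold changes were recovered for DHT at 24 h (15405 genes), and 98.0% and 94.0% for siGATA2 in vehicle (20337 genes). Only 100 genes changed by each fold, far fewer than the 50.0% and 55.6% of genes called in the real data. For siGATA2 the changed genes had a mean of at least 1 RPKM, so these shares do not cover CSGALNACT1. Alternatives were DESeq2 1.42.0, RLE factors, other filters and pseudocounts, no variance trend, median centring, only the groups compared, other uses of the vehicle columns, the replicate number as a block and each library left out. The term for the set number was chosen after seeing the data. Correlations of the deviations of same-numbered libraries ran from -0.204 to 0.179 for the ligand pairs and from -0.342 to 0.28 for the siRNA pairs. Only for siControl against siGATA2 under enzalutamide were all 3 pairs above 0.1 (0.113, 0.241 and 0.148), and nothing states what the numbers share.

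The members and gene lists were chosen with earlier results of these data known. Genes named beside the 8 members are, per list, at most the 3 largest called changes beyond 1.5-fold, of which the text gives a part, and the 3 nearest genes of a member that changed at least 2-fold. Plots used matplotlib 3.10.9 under Python 3.11.15.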

Additional observations from a re-analysis of the deposited data

Results flagged for a closer look

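In the siRNA experiment the response to 25 μM enzalutamide differed between siGATA2 and siControl cells for GCNT1 (0.417 on the log2 scale), ST6GALNAC1 (0.376), ST6GAL1 (-0.166) and GFPT1 (-0.373), by the interaction term in limma. Levels with a ligand differed between 24 h and 4 h for several members, by a direct edgeR comparison of the times that does not involve vehicle. With enzalutamide these were ST6GALNAC1 (-1.565), PGM3 (0.247) and GFPT1 (0.298). With DHT they were ST6GALNAC1 (2.706), CSGALNACT1 (1.178), GALNT7 (0.701), PGM3 (0.505), GCNT1 (0.446), UAP1 (0.305) and ST6GAL1 (-0.676). ST6GALNAC1 appears in all 3 of these comparisons, PGM3 with both ligands and GFPT1 with enzalutamide in both experiments. Libraries of DHT 4 h, enzalutamide 4 h and enzalutamide 24 h each carry 1 set number, so a time difference within a ligand and a difference between sets cannot be told apart except through the vehicle columns.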

How the results depend on the processing

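The 2 libraries per ligand condition and the low counts of ST6GALNAC1 and CSGALNACT1 limit the ligand experiment, the unknown counts behind RPKM values limit the siRNA experiment, and changes under about 0.2 on the log2 scale were the least stable. Among the members' log2 fold changes, 1232 values of the ligand experiment kept their direction and their side of the threshold under the alternatives, 27 changed sign, 18 gained and 19 lost a call, and in the siRNA experiment 766 did, 5 changed sign, 2 gained and 14 lost a call. No called member changed sign under the alternatives run. Where the values below differ from the report, the cause was not tested.

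With the set number as a term, values that were not called changed sign for CSGALNACT1 under enzalutamide at 4 h (0.113) and 24 h (0.02), GFPT1 between DHT and enzalutamide at 4 h (0.035), GCNT1 between the enzalutamide times (0.052) and GFPT1 between the DHT times (-0.017). With the vehicle column of the same set as the only vehicle sample, CSGALNACT1 changed sign under enzalutamide at 4 h (0.061) and 24 h (0.089), and with vehicle replicate 1 from set 2 alone, ST6GAL1 did at 24 h (0.016). The near-zero difference of UAP1 between the enzalutamide times became -0.011 with DESeq2 and with RLE factors, -0.002 without a filter, -0.003 with 4 vehicle columns as separate samples and -0.004 with only the groups compared. The PGM3 interaction became -0.011 after median centring. With each library left out in turn, sign changes occurred within these ranges: under enzalutamide CSGALNACT1 at 4 h (-0.324 to 0.119), GALNT7 (-0.075 to 0.0) and ST6GAL1 (-0.067 to 0.01) at 24 h, between DHT and enzalutamide at 4 h ST6GAL1 (-0.019 to 0.138) and GFPT1 (-0.11 to 0.082), between the enzalutamide times GCNT1 (-0.079 to 0.03) and UAP1 (-0.032 to 0.024), and for PGM3 enzalutamide in siGATA2 (-0.062 to 0.025) and the interaction (-0.02 to 0.067). Under enzalutamide in siGATA2 cells 1 member in place of 0 was called with a mean of at least 0.5 RPKM, and 0 to 1 with each library left out.

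Counts of all genes called moved more. For enzalutamide at 4 h, 2119 genes became 781 with only the groups compared, 759 with the vehicle column of the same set, 1224 with the set term and 1058 to 3111 with a library left out. For enzalutamide at 24 h, 5194 became 3034 with the column of the same set and 3098 to 5943 with a library left out, and for DHT at 4 h, 1053 became 570 to 1432. Between DHT and enzalutamide at 4 h, 2453 became 1578 with only the groups compared, 1060 with the set term and 1256 to 2570 with a library left out, and between the enzalutamide times 3829 became 1628 and 2139 to 3935. In siGATA2 cells the 84 genes called with enzalutamide became 29 with the replicate block, 24 with only the groups compared and 27 to 93 with a library left out. The replicate block lowered the members called for enzalutamide in siControl from 6 to 5 and changed no other member's call.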
